A study of Mus musculus with 6 samples.

Results

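The expression of 40 genes of the cell cycle engine was compared between mouse bone marrow-derived macrophages (BMMs) labelled as controls and as a knockout of the mitotic checkpoint kinase Bub1. The set holds cyclins, cyclin-dependent kinases (Cdks), Cdk inhibitors, the Cdc25 phosphatases, the kinases that oppose them and the small Cks subunits. Members were taken by gene symbol from the authors' deposited table of 15982 genes, in which all 40 symbols occur once. Both groups were primary BMMs grown for 3 days with the macrophage growth factor M-CSF (20 ng/ml), after which RANKL (50 ng/ml), the cytokine that drives osteoclast formation, was added to M-CSF (20 ng/ml) for another 2 days. One group is labelled Ctrl and the other Bub1 cKO, a myeloid-specific knockout, with 3 libraries each. The driver that removes Bub1, the strain, age and sex of the mice, the genotype of Ctrl beyond its name, and whether libraries came from separate animals are details that no source used here states. P-values thus reflect how far the libraries spread, and that spread may be technical. Libraries came from 25 ng of RNA with a 3' end kit, and the table gives 1 value per gene and group, in TPM (a gene's share of all transcripts), so no value per library can be shown.

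Cyclins are the activating subunits of Cdks. D-type cyclins with Cdk4 or Cdk6 and then E-type cyclins with Cdk2 take a cell from G1 into S phase, and cyclin A and cyclin B with Cdk1 carry it through G2 into mitosis. Wee1 and Pkmyt1 hold Cdk1 inactive by phosphorylation until Cdc25 phosphatases remove the mark, while INK4 and Cip/Kip proteins block Cdks by binding. Another branch of the family, with Cdk7, Cdk8, Cdk9, Cdk12 and Cdk13, acts on RNA polymerase and its cofactors. Macrophage precursors divide in response to M-CSF, and they leave the cell cycle as they become osteoclasts.

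Change is given by a pair of measures. The log2 change of the authors' deposited table is log2 of the ratio of the group values after adding 1 TPM to each. The fitted log2 change is the deposited statistic times its standard error. It is the change the authors' test estimated only if the statistic is an estimate over its standard error, which no source used here states. Its 95% interval was taken as 1.96 standard errors on each side. Direction follows the statistic, and levels of different genes are compared only as TPM, which in a 3' end library is lowered for long transcripts.

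The mitotic cyclins and Cdk1 stood at lower values in Bub1 cKO and D-type cyclins at higher ones, but 0 of the 40 genes passed an adjusted p under 0.05 per the authors' deposited table, where 0.181% of all genes did. The smallest adjusted p among them was 0.445 per the authors' deposited table. At an unadjusted p under 0.05 there were 7 of 40, against 4.81% of all genes and 6.27% of those whose mean reached 1 TPM, as it did in all 40. At an unadjusted p under 0.01 there were 2 of 40, Cdc25b and Ccnd2, against 1.40% of all genes. Of the 7, Cdc25b, Ccnf, Cdk1, Cdkn2a and Ccnb1 were lower in Bub1 cKO, where 2.46% of all genes were lower at that level, and Ccnd1 and Ccnd2 were higher, where 2.35% were higher. The statistic was negative in 19 of the 40 genes and in 50.1% of all genes. The median log2 change per the authors' deposited table was 0.00 over the 40 genes and -0.01 over all genes, so the list as a whole lay near the centre of the table and its roles differed in sign.

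**Figure D1:**
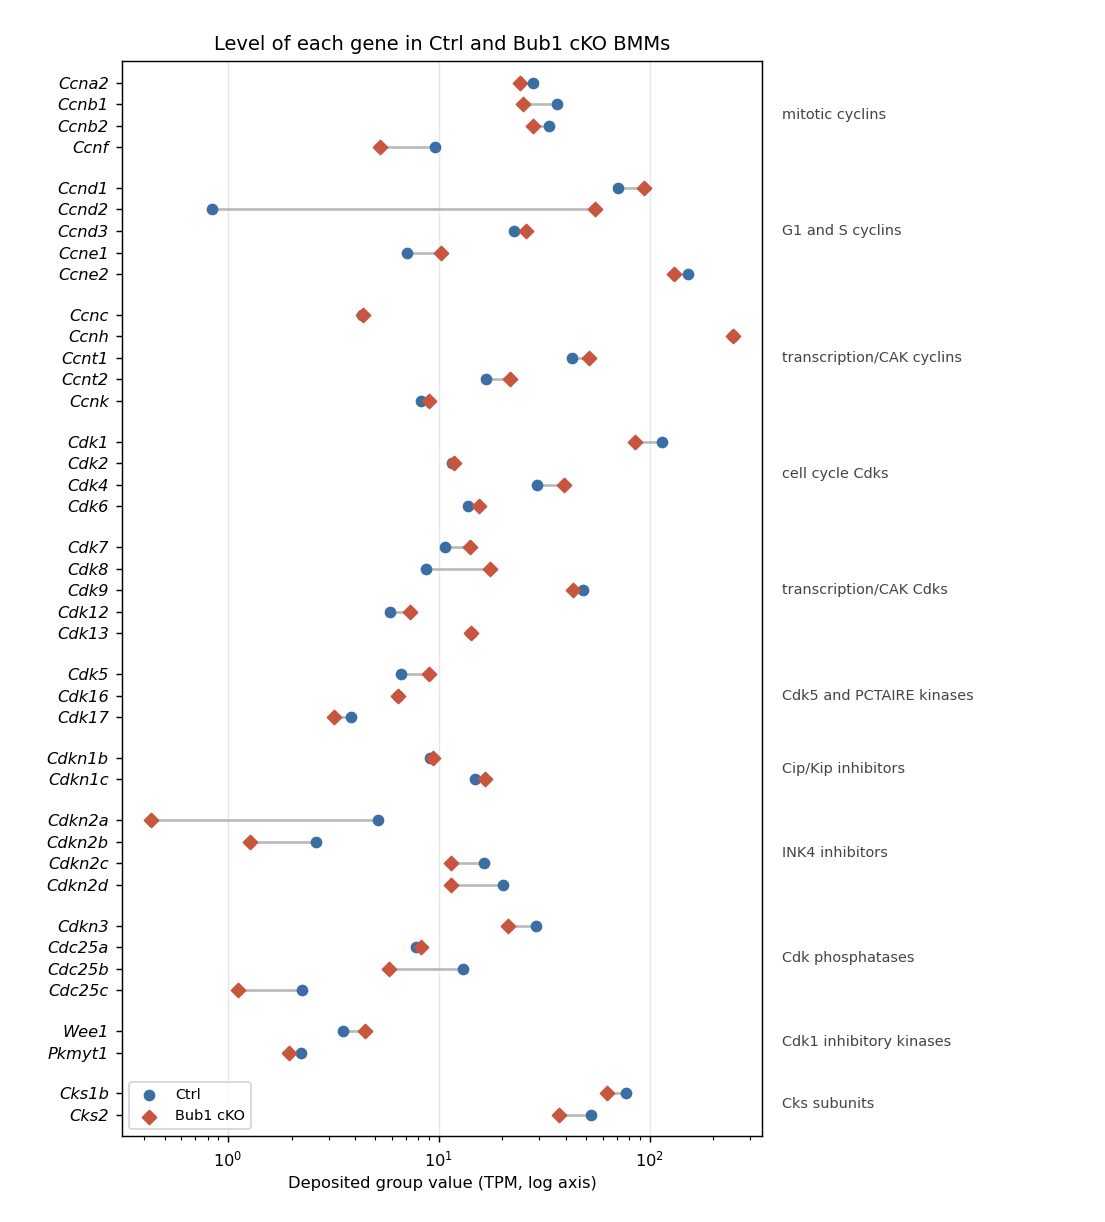
Deposited group value of each of the 40 genes on a log axis in TPM, with Ctrl as blue circles and Bub1 cKO as red diamonds joined by a grey line, ordered by role. The widest gaps belong to Ccnd2, at 0.838 and 55.3 TPM, and Cdkn2a, at 5.12 and 0.429 TPM, while both symbols lie on each other for Ccnh, Cdk13 and Cdk16.

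The makeup of the cultures was read from marker lists, whose levels were summed from the authors' deposited table. Bub1 itself was at 6.73 TPM for Ctrl and 5.32 TPM for Bub1 cKO per the authors' deposited table (adjusted p = 0.985), so a loss of its RNA was not shown. Which exons were removed is not stated in the sources at hand, and this value was not used to check the labels. Macrophage and osteoclast markers were present in both groups: 18 of 18 macrophage markers summed to 3453 and 1934 TPM and 15 of 15 osteoclast markers to 2160 and 2508 TPM. The statistic was negative in 14 macrophage markers and positive in 4, with 6 lower and 2 higher at an unadjusted p under 0.05. For osteoclast markers it was positive in 11 and negative in 4, with 6 higher and 0 lower. At that level 2.46% of all genes were lower and 2.35% higher. Lyz2 alone was at 2141 and 762.1 TPM, and the other 17 macrophage markers summed to 1313 and 1172 TPM. Neutrophil markers, 12 of 13 present, summed to 104 TPM for Ctrl and 241 TPM for Bub1 cKO. Most of each sum came from S100a8 (41.9 and 92.8 TPM) and S100a9 (38.0 and 115 TPM). The statistic was positive for 11 of the 12 and negative for Prtn3 (1.96 and 0.722 TPM). Ltf had a positive statistic although its group value fell from 12.3 to 6.74 TPM. Camp, Elane and Retnlg had a Ctrl value of 0 and rose only to 0.508, 1.52 and 0.283 TPM. Erythroid markers, 6 of 12 present, summed to 19.6 and 358 TPM, and all 6 had a positive statistic. Hbb-bs was at 5.44 and 77.3 TPM, Hbb-bt at 1.01 and 31.8 TPM, Hba-a1 at 4.36 and 77.8 TPM and Hba-a2 at 8.83 and 169 TPM. Alas2 and Slc4a1 were at 0 in Ctrl. The adjusted p was under 0.05 for Hbb-bs (0.00017), Hbb-bt (0.025), Lyz2 (0.00033) and Cxcr2 (0.036, at 2.59 and 10.9 TPM) per the authors' deposited table. No other marker listed passed it. Lymphoid markers (4 of 9) summed to 0.736 and 0.495 TPM and stromal markers (7 of 9) to 3.66 and 3.63 TPM, with Cd3g and Pdgfrb at 0 in Ctrl and Cd3e and Cd8a at 0 in Bub1 cKO. The 24 proliferation markers summed to 1545 and 1365 TPM, and 17 of them had a negative statistic. The other 7, with a positive one, were Mcm2, Mcm5, Mcm6, Tyms, Rrm1, Rrm2 and Kif11. At an unadjusted p under 0.05 Kif23 was lower in Bub1 cKO and Mcm6 higher. The part of the erythroid, neutrophil, macrophage and osteoclast markers in the values of the 40 genes was not tested. In bulk RNA fewer dividing cells and less RNA of the 40 genes per cell cannot be told apart.

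All mitotic cyclins took lower values in Bub1 cKO: 4 of 4 had a negative statistic, and their summed level was 107 TPM for Ctrl and 82.7 TPM for Bub1 cKO per the authors' deposited table. Ccnb1, the cyclin that activates Cdk1 at the entry to mitosis, was at 36.6 and 25.1 TPM per the authors' deposited table (fitted log2 change -0.53, standard error 0.27, unadjusted p = 0.049). Ccnf, an F-box protein that marks targets for degradation in G2, was at 9.62 and 5.26 TPM per the authors' deposited table (fitted log2 change -0.85, standard error 0.38, unadjusted p = 0.026). Ccnb2, the other B-type cyclin, stood at 33.2 and 28.1 TPM and Ccna2, which acts in S phase and G2, at 28.1 and 24.2 TPM, with unadjusted p of 0.403 and 0.195 per the authors' deposited table. Cdk1, the kinase that Ccna2, Ccnb1 and Ccnb2 switch on, had 115 TPM for Ctrl and 85.1 TPM for Bub1 cKO per the authors' deposited table (fitted log2 change -0.48, standard error 0.23, unadjusted p = 0.033). The adjusted p of Ccnb1, Ccnf and Cdk1 was 0.985, 0.902 and 0.946 per the authors' deposited table.

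Promoters of Cdk1 and of the mitotic cyclins Ccnb1, Ccnb2 and Ccnf are shown because these genes all had negative statistics, with Cdc25b, the member with the smallest p among those that were lower, beside them. For Ccna2 no window was found. Each is the RefSeq window of 250 bases before to 50 bases after the start site (GRCm38.p6), 5′ to 3′ on the strand of the gene. Capitals mark matches on either strand to TTTGAA, the cell cycle homology region (CHR) motif, to CCAAT, the NF-Y motif, or to GCGGGAA, an E2F motif. The windows are chr10:69352863-69353162 (minus strand) for Cdk1, chr13:100786437-100786736 (minus) for Ccnb1, chr9:70421505-70421804 (minus) for Ccnb2, chr17:24251360-24251659 (minus) for Ccnf and chr2:131186698-131186997 (plus) for Cdc25b.
Cdk1: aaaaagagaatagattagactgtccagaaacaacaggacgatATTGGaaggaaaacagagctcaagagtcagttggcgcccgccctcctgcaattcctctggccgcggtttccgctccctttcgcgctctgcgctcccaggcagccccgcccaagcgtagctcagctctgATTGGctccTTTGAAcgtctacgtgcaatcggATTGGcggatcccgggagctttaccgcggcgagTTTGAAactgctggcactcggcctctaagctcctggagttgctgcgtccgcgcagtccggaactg
Ccnb1: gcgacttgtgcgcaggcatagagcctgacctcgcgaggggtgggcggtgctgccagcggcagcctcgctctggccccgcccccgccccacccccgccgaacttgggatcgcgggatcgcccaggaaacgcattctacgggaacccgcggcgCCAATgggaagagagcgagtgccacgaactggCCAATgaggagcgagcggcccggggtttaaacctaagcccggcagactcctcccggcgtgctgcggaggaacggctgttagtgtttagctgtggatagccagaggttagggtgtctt
Ccnb2: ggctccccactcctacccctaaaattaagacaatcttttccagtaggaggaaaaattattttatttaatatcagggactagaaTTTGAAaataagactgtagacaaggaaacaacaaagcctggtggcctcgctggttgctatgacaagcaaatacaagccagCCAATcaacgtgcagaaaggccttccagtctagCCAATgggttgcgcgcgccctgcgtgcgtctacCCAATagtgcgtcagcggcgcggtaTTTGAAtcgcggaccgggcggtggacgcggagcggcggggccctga
Ccnf: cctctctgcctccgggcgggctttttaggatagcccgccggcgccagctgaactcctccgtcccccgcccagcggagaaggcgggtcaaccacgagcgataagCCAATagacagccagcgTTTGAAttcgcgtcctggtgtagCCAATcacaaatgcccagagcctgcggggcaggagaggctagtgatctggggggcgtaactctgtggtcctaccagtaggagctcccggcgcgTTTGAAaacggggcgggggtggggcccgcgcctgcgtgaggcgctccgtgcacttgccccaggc
Cdc25b: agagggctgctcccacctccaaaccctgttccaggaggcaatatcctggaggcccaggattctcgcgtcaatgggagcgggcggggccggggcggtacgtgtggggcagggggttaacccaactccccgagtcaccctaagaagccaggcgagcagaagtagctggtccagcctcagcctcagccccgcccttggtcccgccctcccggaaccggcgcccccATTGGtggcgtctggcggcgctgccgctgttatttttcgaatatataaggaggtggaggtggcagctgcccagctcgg

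In the Cdk1 window TTTGAA began 71 and 15 bases before the start site, and in the Ccnf window 130 and 14 bases before it. In Ccnb2 it began 167 bases before and 4 bases after the start. The Ccnb1 and Cdc25b windows did not hold these letters. CCAAT boxes lay at regular distances in the B cyclins: in Ccnb1 they began 99 and 67 bases before the start, a spacing of 32 bases, and in Ccnb2 87, 54 and 21 bases before it, 33 bases apart each time. Cdk1 holds CCAAT on the other strand, with neighbouring matches 80 and 48 bases before the start and again 32 bases apart. A spacing of 31 to 34 bases on 1 strand, a range chosen after these values were seen, occurs in 0.895% of all 32851 RefSeq windows. Counted per gene it occurs in 2.14% of the 7979 genes with a window and a mean of at least 1 TPM. Among the members it occurs in Ccnb1, Ccnb2 and Cdk1.

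A window was used for 29 of the 40 genes. Windows on chromosome 18, where Cdc25c lies, were left out for the members but not for all genes. Over the 7979 genes of the table with a window and a mean no lower than 1 TPM the shares were counted per gene too, since a gene can have several windows. TTTGAA occurred in 7 of these 29 genes, in 14.6% of those 7979 and in 17.9% of all windows. The 7 were Ccnb2, Ccnf, Cdk1, Cdk16, Cdkn2b, Cdkn3 and Cks1b, and 6 of them had a negative statistic, all but Cdk16, against 9 of the 22 genes without the motif. CCAAT occurred in 20 of 29 genes, in 43.2% of the 7979 and in 37.4% of all windows, with a negative statistic in 13 of the 20 and in 2 of the other 9. Over the 7979 genes the statistic was negative in 53.1% of the 1166 with TTTGAA and in 50.2% of the 6813 without it, and in 52.8% of the 3446 with CCAAT and 49.0% of the 4533 without. With both motifs in 1 window it was negative in 56.5% of 496 genes, against 50.3% of the other 7483. For the 171 genes with a pair of CCAAT boxes at the spacing above it was negative in 62.0%, against 50.4% of the 7808 without. The median fitted log2 change was -0.127 with the pair and -0.003 without, -0.025 and -0.002 for TTTGAA, and -0.024 and 0.009 for CCAAT. The 171 include Ccnb1, Ccnb2 and Cdk1, whose windows gave the spacing and were shown for their negative statistics. These shares are thus not independent of that choice, and no test was run on them. GCGGGAA occurred in 3 of 29 members, Cdk2, Cdkn2a and Cdkn2c, a share like the 10.3% of the 7979 genes (4.60% of all windows). These matches describe the letters in each window, and binding was not measured.

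**Figure D2:**
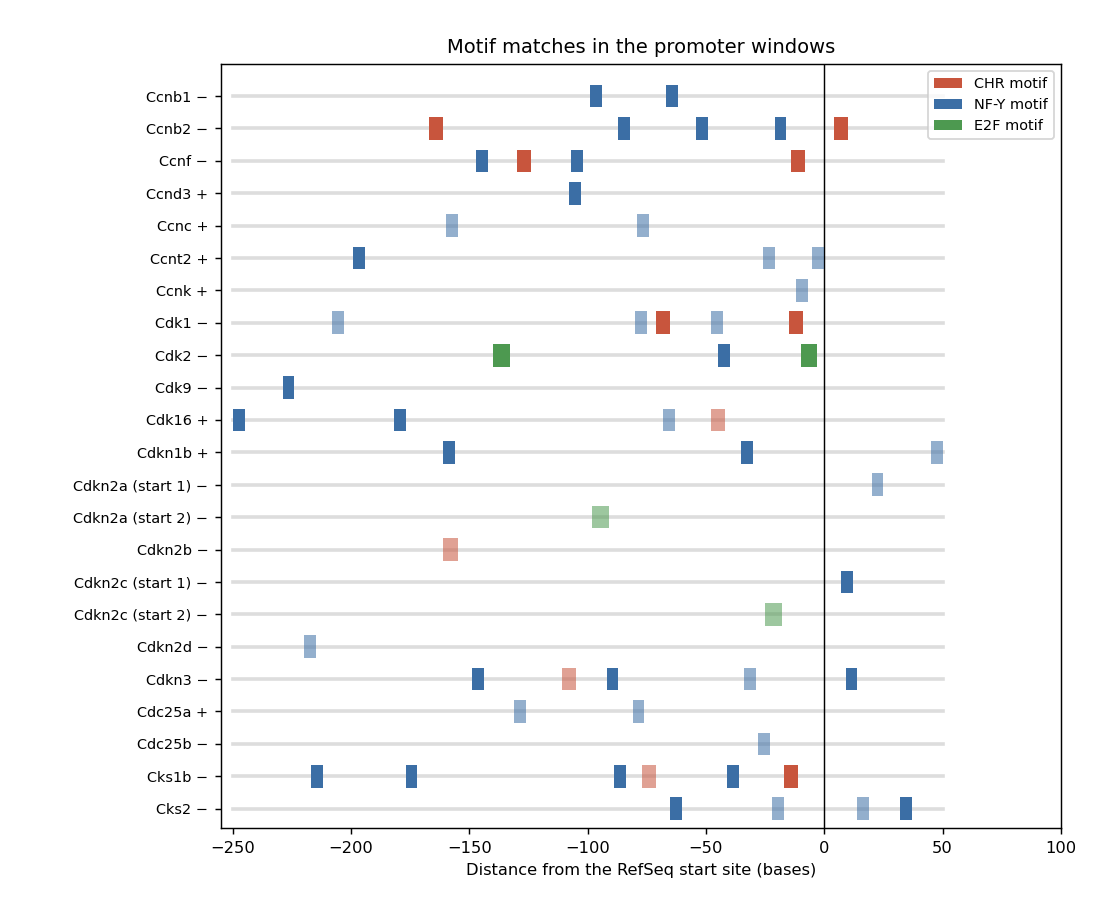
Motif matches against distance from the RefSeq start site in bases, for the 23 promoter windows of 21 genes that hold at least 1 match. Red, blue and green blocks are CHR, NF-Y and E2F motifs, and paler blocks lie on the opposite strand. The sign after each name is that of the statistic. The windows of Ccnb2, Ccnf, Cdk1, Cdkn3 and Cks1b hold both red and blue blocks and carry a minus. That of Cdk16 holds both and carries a plus.

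Of the 4 Cdk phosphatases 3 had a negative statistic, and Cdc25b had an unadjusted p under 0.05. Cdc25b, the phosphatase that starts the activation of Cdk1, had 13.0 TPM for Ctrl and 5.77 TPM for Bub1 cKO, with a standard error of 0.38 and an unadjusted p of 0.007 per the authors' deposited table. The fitted log2 change was -1.04 (95% interval -1.79 to -0.29), a level 2.06-fold lower in Bub1 cKO, and its adjusted p was 0.602 per the authors' deposited table. The lower coordinates of Cdc25b and Bub1 on chromosome 2 lie 3.39 Mb apart (131186949 and 127801122, GENCODE M21, GRCm38), with Bub1 on the minus strand. A part of linked variants in the value of Cdc25b was not tested. Cdc25c, the phosphatase named for mitosis, stood at 2.25 and 1.12 TPM per the authors' deposited table with a standard error of 1.02, so that a difference of this size was not detectable at its level. Cdc25a, which also acts at the start of S phase, was at 7.77 and 8.19 TPM and had a positive statistic per the authors' deposited table. Cdkn3, a phosphatase that takes an activating phosphate off Cdks, was at 28.8 and 21.2 TPM per the authors' deposited table (unadjusted p = 0.38).

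The Cks subunits, which dock Cdk complexes onto phosphorylated substrates, both had negative statistics. Cks1b was at 76.9 TPM for Ctrl and 62.7 TPM for Bub1 cKO, and Cks2 at 52.8 and 37.3 TPM, with unadjusted p of 0.342 and 0.243 per the authors' deposited table. The kinases that oppose Cdc25 showed no common direction: Wee1 was at 3.51 and 4.44 TPM and Pkmyt1 at 2.22 and 1.94 TPM per the authors' deposited table. Pkmyt1 had a standard error of 1.14 per the authors' deposited table, so its 95% interval ran from -2.33 to 2.15 and holds large changes in either direction.

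The cyclins of G1 and of the entry into S phase differed from the mitotic ones in sign: 5 of 5 had a positive statistic, although that of Ccne2 was close to 0. Ccnd1, the D-type cyclin that growth factors such as M-CSF induce, was at 70.8 TPM for Ctrl and 93.9 TPM for Bub1 cKO per the authors' deposited table (fitted log2 change 0.40, standard error 0.18, unadjusted p = 0.027, adjusted p = 0.905). Ccnd3 was at 22.8 and 25.9 TPM and Ccne1, a partner of Cdk2, at 7.10 and 10.2 TPM per the authors' deposited table, with unadjusted p of 0.247 and 0.445. Ccne2, the other E-type cyclin, was among the most abundant of the 40 genes, with 153 TPM for Ctrl and 131 TPM for Bub1 cKO per the authors' deposited table. The fitted log2 change was 0.00 (95% interval -0.70 to 0.70), beside -0.22 from the group values.

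Ccnd2, the third D-type cyclin, had the largest log2 change of the 40 genes and the smallest p. It was at 0.838 TPM for Ctrl and 55.3 TPM for Bub1 cKO, a log2 change of 4.94, with an unadjusted p of 0.004 and an adjusted p of 0.445 per the authors' deposited table. The size of the difference depended on the column read. The group values differ 66.0-fold, whereas the fitted log2 change was 1.76 (95% interval 0.58 to 2.94), or 3.39-fold with an interval from 1.49 to 7.70. The deposited log2 change lay 5.26 standard errors above the fitted one, a wider gap than in all but 22 of the 15982 genes. Summed over the D-type cyclins the group values were 94.5 TPM for Ctrl and 175 TPM for Bub1 cKO per the authors' deposited table, and without Ccnd2 93.6 and 120 TPM.

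**Figure D3:**
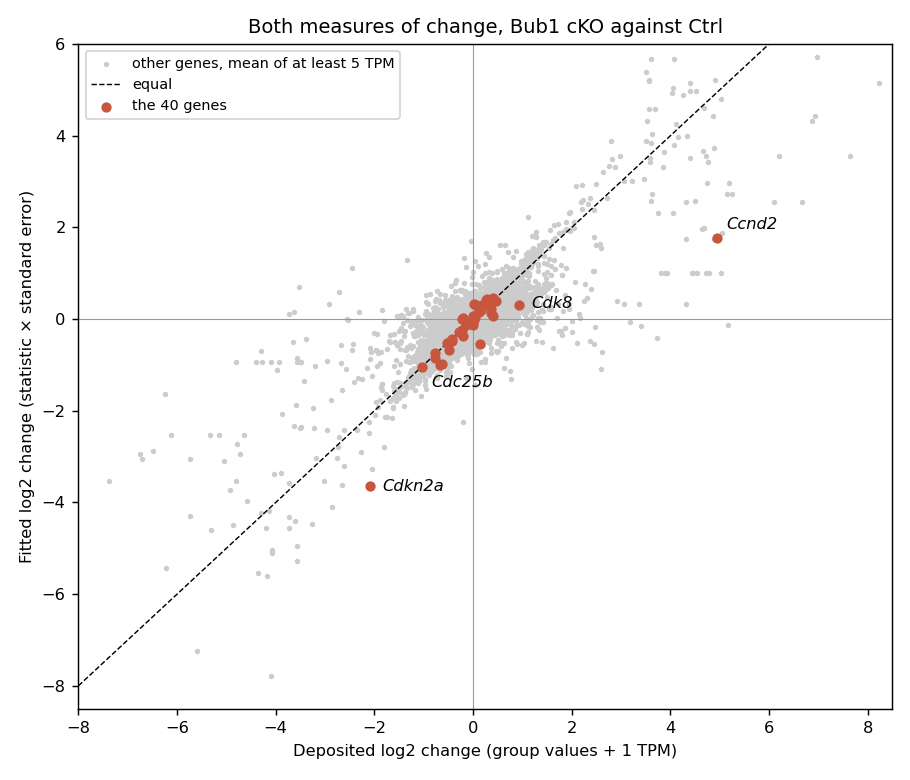
Deposited log2 change on the x axis against the fitted log2 change on the y axis, with the 40 genes in red over the genes of at least 5 TPM in grey (1 of 7159 lies outside the axes), and a dashed line where both are equal. Ccnd2 lies far below the line at 4.94 and 1.76, Cdk8 below it at 0.93 and 0.30, and the other 38 genes within 1 standard error of it.

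The measures of change differed by more than 1 standard error in Ccnd2 and Cdk8 alone among the 40 genes, against 10.7% of all genes. Cdk8, the kinase of the Mediator complex, was at 8.68 TPM for Ctrl and 17.5 TPM for Bub1 cKO per the authors' deposited table, a 2.01-fold higher group value. The fitted log2 change was 0.30 (95% interval -0.48 to 1.08), with an unadjusted p of 0.454 per the authors' deposited table. A processed pseudogene, Gm15739, overlaps Cdk8 by 872 bases on the same strand and was at 0 and 0.207 TPM per the authors' deposited table. The measures had opposite signs in 5 of the 40 genes (Ccne2, Cdk2, Cdk16, Cdk17 and Cdkn1c) and in 9.50% of all genes.

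Of the Cdks that drive the cycle, Cdk1 was the one with a difference at an unadjusted p under 0.05. Cdk2, the partner of E-type cyclins and cyclin A, was at 11.5 TPM for Ctrl and 11.8 TPM for Bub1 cKO per the authors' deposited table. Cdk4 and Cdk6, the partners of D-type cyclins, were at 29.4 and 39.5 TPM and at 13.8 and 15.5 TPM per the authors' deposited table. Cdk6 was the most precisely measured of the 40 genes, with a standard error of 0.16 per the authors' deposited table, and its 95% interval ran from 0.93-fold to 1.43-fold. For Cdk4 the fitted log2 change was 0.07 (95% interval -0.71 to 0.85), below the 0.41 of its group values.

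The INK4 inhibitors, which bind Cdk4 and Cdk6 and keep D-type cyclins off them, all had negative statistics, 4 of 4, and summed to 44.3 TPM for Ctrl and 24.5 TPM for Bub1 cKO per the authors' deposited table. Cdkn2a had the largest difference, with 5.12 TPM for Ctrl and 0.429 TPM for Bub1 cKO per the authors' deposited table (deposited log2 change -2.10, unadjusted p = 0.035, adjusted p = 0.962). The fitted log2 change was -3.65 (standard error 1.73), and its 95% interval ran from -7.03 to -0.27, the widest of the 40 genes. The gene encodes an INK4 protein and the p53 regulator Arf from transcripts that share their 3' end, which reads from a 3' end library cannot tell apart. Cdkn2d was at 20.1 and 11.4 TPM, Cdkn2c at 16.4 and 11.4 TPM and Cdkn2b at 2.60 and 1.28 TPM, with unadjusted p of 0.16, 0.181 and 0.427 per the authors' deposited table. Cdkn2a, Cdkn2b and Cdkn2c lie on chromosome 4 and Cdkn2d on chromosome 9, away from Bub1 on chromosome 2.

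The Cip/Kip inhibitors, which bind Cdk2 complexes above all, were split, 1 with a positive and 1 with a negative statistic. Cdkn1b (p27) was at 9.12 TPM for Ctrl and 9.36 TPM for Bub1 cKO per the authors' deposited table, and its 95% interval ran from 0.59-fold to 1.82-fold. Cdkn1c (p57) was at 14.9 and 16.6 TPM per the authors' deposited table, while the fitted log2 change was -0.54 (95% interval -1.91 to 0.83). The related inhibitor Cdkn1a (p21), which belongs to the list of other regulators below, was at 104 and 110 TPM per the authors' deposited table (unadjusted p = 0.587) and was chosen after its values were seen.

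**Figure D4:**
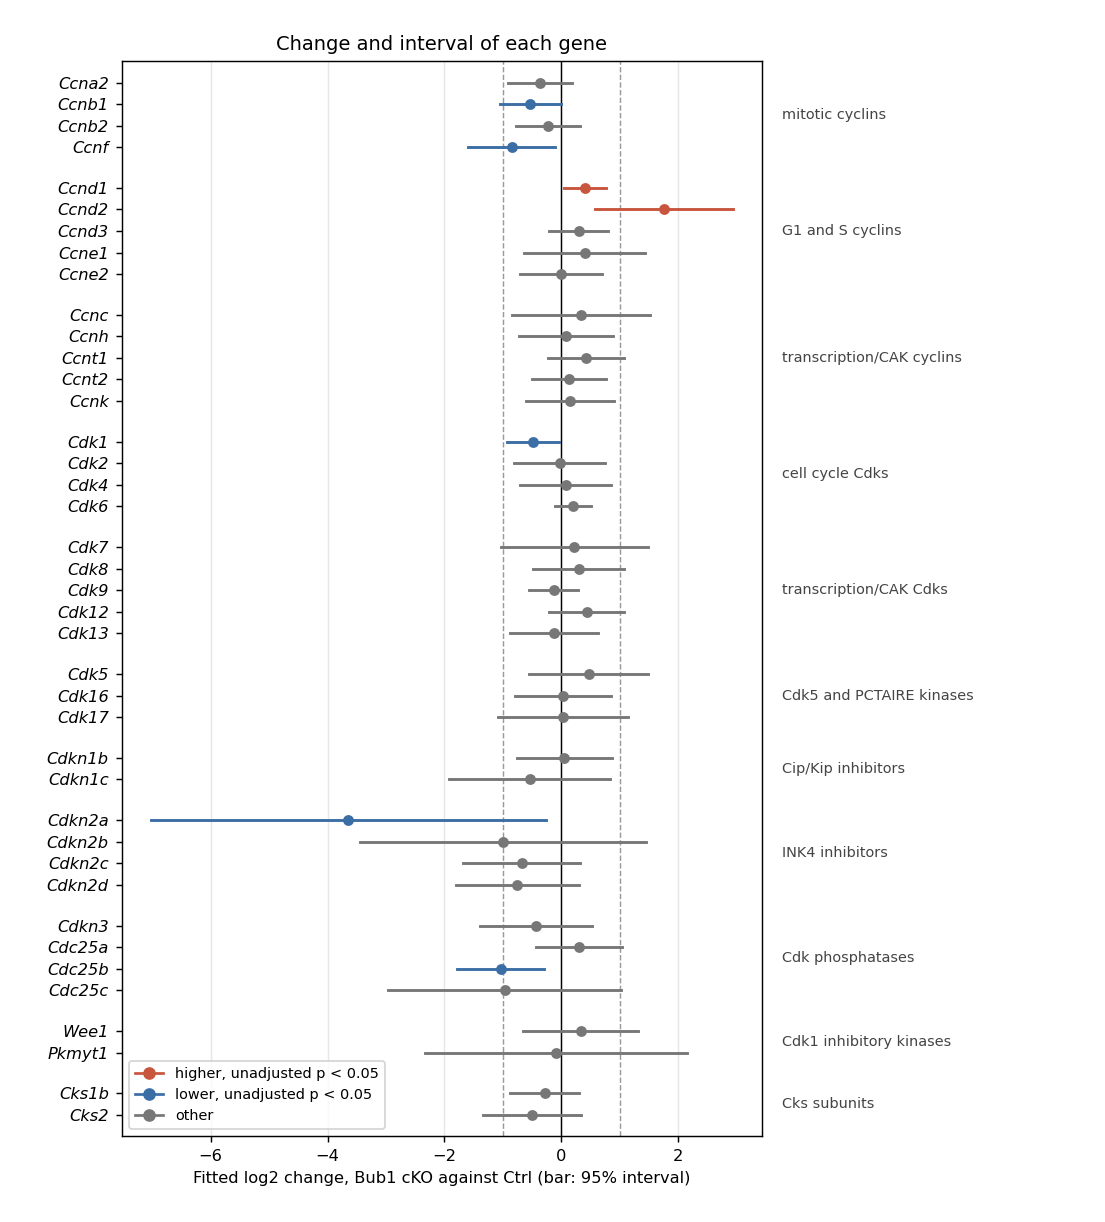
Fitted log2 change of Bub1 cKO against Ctrl for each gene, with bars for the 95% interval, blue for genes lower and red for genes higher at an unadjusted p under 0.05 and grey for the rest, and dashed lines at a 2-fold change. The 4 mitotic cyclins and 4 INK4 genes lie left of 0, the G1 and S cyclins at or right of it, and Cdkn2a has the widest bar, from -7.03 to -0.27.

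The cyclins and kinases of transcription, Cdk8 apart, had group values within 1.5-fold of each other. Ccnh, which with Cdk7 forms the kinase that activates other Cdks, had the highest level of the 40 genes and was at 249 TPM for Ctrl and 250 TPM for Bub1 cKO per the authors' deposited table. Cdk7 itself was at 10.7 and 14.1 TPM per the authors' deposited table. Of the P-TEFb complex, which releases paused polymerase, Cdk9 was at 48.2 and 43.4 TPM, Ccnt1 at 42.8 and 51.6 TPM and Ccnt2 at 16.7 and 21.8 TPM per the authors' deposited table. Ccnk, the partner of Cdk12 and Cdk13, was at 8.21 and 8.96 TPM, Cdk12 at 5.88 and 7.33 TPM and Cdk13 at 14.2 TPM in both groups per the authors' deposited table. Ccnc, the cyclin of Cdk8, was at 4.32 and 4.36 TPM per the authors' deposited table. The statistic was positive in 5 of 5 of these cyclins and in 3 of 5 of the kinases, and 0 of these 10 genes had an unadjusted p under 0.05.

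The remaining kinases are known outside the cycle. Cdk5, best known from neurons, was at 6.63 TPM for Ctrl and 9.03 TPM for Bub1 cKO per the authors' deposited table, and the PCTAIRE kinases Cdk16 and Cdk17 were at 6.39 and 6.38 TPM and at 3.81 and 3.18 TPM. Their unadjusted p ran from 0.367 to 0.958 per the authors' deposited table.

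How firmly a gene without a call can be read depends on its error. For 17 of the 40 genes the 95% interval lay inside a 2-fold change in either direction. The share was 23.0% over all genes, those under 1 TPM included. Among the 17 were Cdk1, Cdk2, Cdk4, Cdk6, Cdk9, Ccnd1, Ccnd3, Ccne2, Ccnb2, Ccna2 and Cdkn1b. For the other 23 a 2-fold difference lay within the interval, which includes Cdc25c, Pkmyt1, Cdkn2b and Cdkn1c. The standard errors ran from 0.16 to 1.73 with a median of 0.40, beside 0.76 over all genes, per the authors' deposited table. The annotation has 12 of the 40 genes overlapping a gene of the table on the opposite strand. Among them Ccnd1 overlaps Oraov1 by 1771 bases, and Cdc25b overlaps Spef1 (0.966 and 0.235 TPM) by 334 bases. The abundant Ccnh overlaps Rasa1 (77.4 and 84.5 TPM) by 8690 bases, and Ccne2 overlaps Ints8 (64.6 and 55.4 TPM) by 5622 bases. Reads of such partners cannot be told apart unless counting used strand, which no source used here states. The high levels of Ccnh and Ccne2 carry this limit.

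Other genes of the pathway were read from lists of further cyclins and Cdks and of their regulators. Of the 15 further cyclins and Cdks present among 20 listed, 10 had a negative statistic, against 50.1% of all genes. At an unadjusted p under 0.05, 1 was lower and 1 higher, where 2.46% of all genes were lower and 2.35% higher, and 0 passed the adjusted p. Ccng2, an atypical cyclin of quiescent cells, was at 4.16 TPM for Ctrl and 0.491 TPM for Bub1 cKO per the authors' deposited table (fitted log2 change -3.10, 95% interval -4.89 to -1.31, unadjusted p = 0.00068, adjusted p = 0.187). Cdk10 was at 2.50 and 9.25 TPM per the authors' deposited table (unadjusted p = 0.026), and Ccni and Cdk19, next by p, had unadjusted p of 0.126 and 0.153. Cdk14, named after its values were seen, was at 17.3 and 192 TPM per the authors' deposited table (log2 change 3.40), but the fitted log2 change was -0.15 (95% interval -0.63 to 0.33), a gap of 14.6 standard errors, wider than that of Ccnd2. Of 43 regulators 24 had a negative statistic, against 50.1% of all genes. At an unadjusted p under 0.05, 2 of the 43, Cdc20 and Plk1, were lower and none higher, against 4.81% of all genes in either direction. The list as a whole was thus near the shares of all genes. Cdc20, the activator of the anaphase-promoting complex that ends cyclin B, was at 34.1 and 21.0 TPM and Plk1, the kinase that acts on Cdc25 and Wee1, at 29.4 and 20.2 TPM per the authors' deposited table, with adjusted p of 0.911 and 0.983. Bora and Rbl1, next by p, were at 6.52 and 4.45 TPM and at 15.1 and 10.3 TPM per the authors' deposited table.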

How the data were processed

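RNA was measured in 6 libraries, 3 labelled Ctrl and 3 labelled Bub1 cKO, grouped by their titles. Per the file headers the table was made with the RaNA-seq web service. Its aligner, genome build, annotation and test were not stated in those headers or in the labels. The deposited group values were taken as TPM, since they sum to 999891 for Ctrl and 999954 for Bub1 cKO (CPM would sum alike), and depth is unknown. In 15982 genes the log2 change deposited by the authors matched, within 0.002, the log2 ratio of both group values after adding 1 TPM. The authors' statistic and its standard error, as deposited, are scores of their test. In 15974 genes the deposited p-value matched a 2-sided normal tail (tolerance 0.0006 on p and statistic), and in the other 8, none of them a member, the p-value is 1.

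The call is the adjusted p-value deposited by the authors, under 0.05 over all genes. The fitted change and its interval were computed in Python 3.11.15 (pandas 2.3.3, numpy 2.4.6), and the adjustment step was tested on simulated data. All 40 members are described, and of each pathway list the 4 genes of smallest p. Gene positions come from GENCODE M21, matched by gene ID (same version in 35 of 40), and promoters from RefSeq by symbol. For 11 genes no window was found or, on chromosome 18, none was used. Members and lists were chosen with earlier results of these data known.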

Additional observations from a re-analysis of the deposited data

How the results depend on the processing

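The count of 0 members past the adjusted p held with a threshold of 0.1 and with p adjusted again over all genes, over genes of at least 1 TPM and over genes above the median mean, where the smallest adjusted p was 0.435, 0.322 and 0.273. At an unadjusted p under 0.01 in place of 0.05 there were 1 lower member (Cdc25b) and 1 higher (Ccnd2), in place of 5 and 2, because the threshold is stricter. The number of negative directions was 19 by the statistic and 20 by the deposited log2 change. The median log2 change of the members was 0.00 with a pseudocount of 5 or 0.1 and 0.01 with the fitted change or with centring on the median of genes of at least 1 TPM. Ccnd2 had log2 changes of 3.37 and 5.88 with a pseudocount of 5 and 0.1. Centring turned the sign of Cdk13 and Cdk16, both at -0.00 before it. No paired analysis was possible because the table holds 1 value per group, and for the same reason leaving out a replicate was not run.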
